A study of Mus musculus with 4 samples.

Results

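Interferon-stimulated genes were followed as a group of 35 genes in mTECs, the medullary epithelial cells of the thymus that show self-antigens to developing T cells. The group was set by name, as a list of classical interferon-induced transcripts. All 35 of 35 genes had a row among the 23366 gene symbols of the count table, and all 35 passed the filter on low counts that left 10865 genes for testing. The mTECs came from female and male C57BL/6 wild-type mice aged 6 to 8 weeks, and the cells of 10 mice made 1 pool, with 2 pools per sex. Cells were sorted as PI-, CD45-, MHCII+ and Ly51 low, and the labels name no treatment. Polyadenylated RNA was turned into cDNA with a low-input kit and sequenced, and the question of the design was how male and female mTECs differ. The pools held 3508921 (female 1), 1976272 (female 2), 7103627 (male 1) and 3344471 (male 2) reads on genes. The 35 genes took 0.276%, 0.337%, 0.283% and 0.283% of these reads in the same order, and a single gene had between 16 and 2899 reads in a pool.

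Interferons are secreted proteins that bind paired receptor chains and act through Janus kinases and the transcription factors these kinases switch on. Type I and type III interferons drive ISGF3, a complex that includes STAT2 and IRF9 and binds the interferon-stimulated response element, whereas interferon gamma acts mainly through another element. The induced genes encode sensors of foreign RNA and DNA, enzymes and membrane proteins that block viral growth, and the factors that amplify or end the response. In the thymus, mTECs are known to make interferon beta without infection.

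Markers of the labelled cell type were present, but the marker lists of B cells, macrophages and monocytes, and dendritic cells took more reads. The level used here is normalized CPM, reads on a gene scaled for the depth of the library and, by TMM, for its composition, with factors of 1.05 and 1.03 for female pools 1 and 2 and 1.18 and 0.78 for male pools 1 and 2. On that scale the epithelial marker Epcam had 36.8 and 42.4 in female pools 1 and 2, and 43.8 and 51.3 in male pools 1 and 2, and all values of a sex are given in this order, pool 1 and then pool 2. Aire, the transcriptional regulator of self-antigens in mature mTECs, had 19.2 and 31.5 in females and 19.6 and 28.7 in males. Ccl21a, a chemokine of the medulla, had no count in any pool, but it has near-identical copies, and reads with several alignments were not counted on genes. Ptprc, which encodes the CD45 that the sort removed, had 279 and 179 in females and 303 and 218 in males, so the RNA was not of mTECs alone. Over the marker lists given at the end, 14 markers of thymic epithelium summed to 409 to 711 in a pool, B cell markers to 2527 to 4597 and macrophage and monocyte markers to 1507 to 6375, in normalized CPM, which are shares of reads not corrected for gene length or list size, and "mTECs" here names the sort, not the purity of the RNA. Xist, which is transcribed from the inactive X chromosome, was at 94.4 and 54.7 in females and at 0.832 and 6.90 in males, and the Y-linked Ddx3y had 445 and 89 counts in males and 0 in each female pool. In RNA of such pools, fewer cells of a type and less RNA per cell cannot be told apart.

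Levels of the 35 genes spanned 212-fold when set per kilobase of exon, the scale used to order the genes. Bst2, which encodes tetherin, a membrane protein that holds budding virus on the cell surface, was highest at 517 ± 224 normalized CPM per kilobase (SD, n = 4 pools). Isg15, a ubiquitin-like protein that is attached to other proteins, followed at 351 ± 232, and Irf7, the factor that amplifies type I interferon transcription, at 145 ± 35.3. Ifi35 stood at 129 ± 31 and Usp18, the protease that removes ISG15 and damps receptor signalling, at 92.2 ± 29.9. At the other end, Ddx58 had 2.71 ± 0.804, Cmpk2 2.45 ± 0.53 and Oas2 2.44 ± 0.22. Between Usp18 and the sixth gene in order, Oasl1 at 42.7 ± 8.79, the pool ranges did not overlap. All other neighbours in the order overlapped. The median gene of the group had 14.7 normalized CPM per kilobase against 6.04 for the 10239 tested genes with a known exon length, and 10 of the 35 were below the median of those genes.

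**Figure D1:**
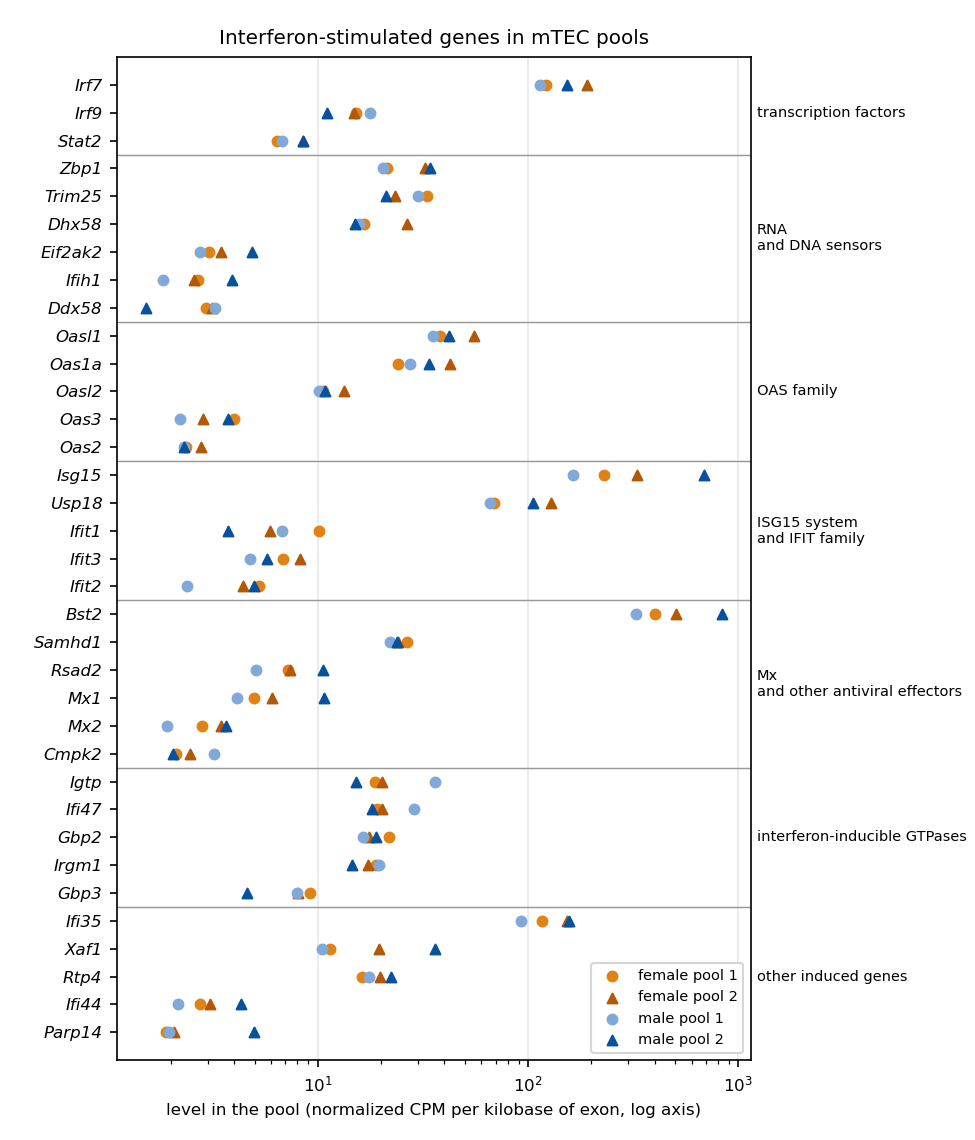
Level of each of the 35 interferon-stimulated genes in each pool, in normalized CPM per kilobase of exon on a log axis, with genes grouped by role; circles are pools numbered 1, triangles pools numbered 2, orange female and blue male. Bst2, Isg15, Irf7, Ifi35 and Usp18 lie to the right of all other genes in their mean, and male pool 2 is the highest pool for Isg15, Bst2, Xaf1 and Parp14.

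Promoter sequences are given for 4 genes, all of which hold the sequence core searched for below. Isg15 and Bst2 were higher in both pools numbered 2, and Ifit1 and Igtp had the lowest differences by pool number. Xaf1, with a larger difference by pool number than Bst2, had no match to this core and is not shown. RefSeq windows from 250 bases before to 50 bases after the start (GRCm38.p6) could be matched for 27 of the 35 genes, with no entry for Dhx58, Zbp1, Oas2, Usp18, Mx1, Mx2, Parp14 and Rtp4. Each sequence is 60 bases on the gene's own strand, read 5′ to 3′, and capitals mark every match to GAAANNGAAA, the core of the interferon-stimulated response element, on either strand. They lie at chr4:156200850-156200909 (minus strand) for Isg15, chr8:71537562-71537621 (minus strand) for Bst2, chr19:34640779-34640838 (plus strand) for Ifit1 and chr11:58199496-58199555 (plus strand) for Igtp.
Isg15: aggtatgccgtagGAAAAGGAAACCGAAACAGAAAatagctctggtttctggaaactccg
Bst2: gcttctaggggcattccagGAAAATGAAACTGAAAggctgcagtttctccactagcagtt
Ifit1: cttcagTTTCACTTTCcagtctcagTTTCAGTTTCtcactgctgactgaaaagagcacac
Igtp: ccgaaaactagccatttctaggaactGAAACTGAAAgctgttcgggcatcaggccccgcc
The match nearest the start lay 66 to 57 bases before it in Isg15, 124 to 115 in Bst2, 85 to 76 in Ifit1 and 34 to 25 in Igtp, and the matches of Isg15 and of Bst2 overlapped each other. This core was in the window of 15 of the 27 genes (55.6%) and of 1079 of 27025 genes with a window (3.99%). The element through which interferon gamma acts, searched as TTCNNNGAA on either strand, was in the windows of 7 of the 27 genes (25.9%) and of 9.55% of all genes with a window, and the 2 searches can share bases. Since the group was set by name as interferon-induced genes, these shares are void as a check on it. They describe 27 genes only, as 8 had no window. Among others, the windows of Irf7, Irf9, Xaf1, Oasl1 and Oasl2 held neither core, which says only that these letters are absent there.

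No interferon-stimulated gene passed the test between male and female mTECs. In edgeR's quasi-likelihood test, adjusted by Benjamini-Hochberg over 10865 genes, 0 of the 35 genes passed at 0.05, where 0% of all genes did. At an unadjusted p under 0.05 the count was also 0 of 35, beside 0.442% of all genes, and DESeq2 and edgeR's exact test called 0 of the 35, among 3 and 8 calls over all genes. With 2 pools per sex this test called nothing at all, the Y-linked Ddx3y (adjusted p = 0.186 by edgeR's quasi-likelihood test) and Xist (adjusted p = 1) included, so the absence of calls does not show that the genes were alike in the sexes. The log2 fold change of male over female was above 0 for 15 genes and below 0 for 20, from -0.59 to 0.79. Its median was -0.11, against 0.027 for all genes tested, and the median standard error of a gene was 0.42. Without female pool 2, 20 genes were above 0 and 15 below (median 0.12). Without male pool 1 the counts were 18 and 17 (median 0.025), and without male pool 2 they were 7 and 28 (median -0.27). With library size alone, 10 were above 0 and 25 below (median -0.19). Both male pools lay above both female pools for 0 genes, where 9.47% of all genes did so. Both male pools lay below both female pools for 5 genes, Dhx58, Oas2, Ifit3, Samhd1 and Gbp3, a share near the 11.7% of all genes. The nearest male and female pools almost met for Oas2 (10.3 and 10.5 normalized CPM), Samhd1 (219 and 220) and Gbp3 (25.8 and 26.1). Within pool number, male pool 1 was higher than female pool 1 for 10 of the 35 genes (median log2 ratio -0.12), beside 48.6% of all genes (median -0.011). Male pool 2 was higher than female pool 2 for 17 (median -0.0032), beside 49.4% of all genes (median -0.012).

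This result rested on male pool 1 for 3 genes. Without it, Isg15 (log2 fold change 1.28, adjusted p = 0.0499), Xaf1 (1.21, adjusted p = 0.0329) and Parp14 (1.33, adjusted p = 0.0168) passed edgeR's quasi-likelihood test as higher in males, in a fit where male pool 2 stood alone and 646 of 11292 genes passed. Without male pool 2, the same 3 genes had -0.76, -0.54 and -0.0022.

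**Figure D2:**
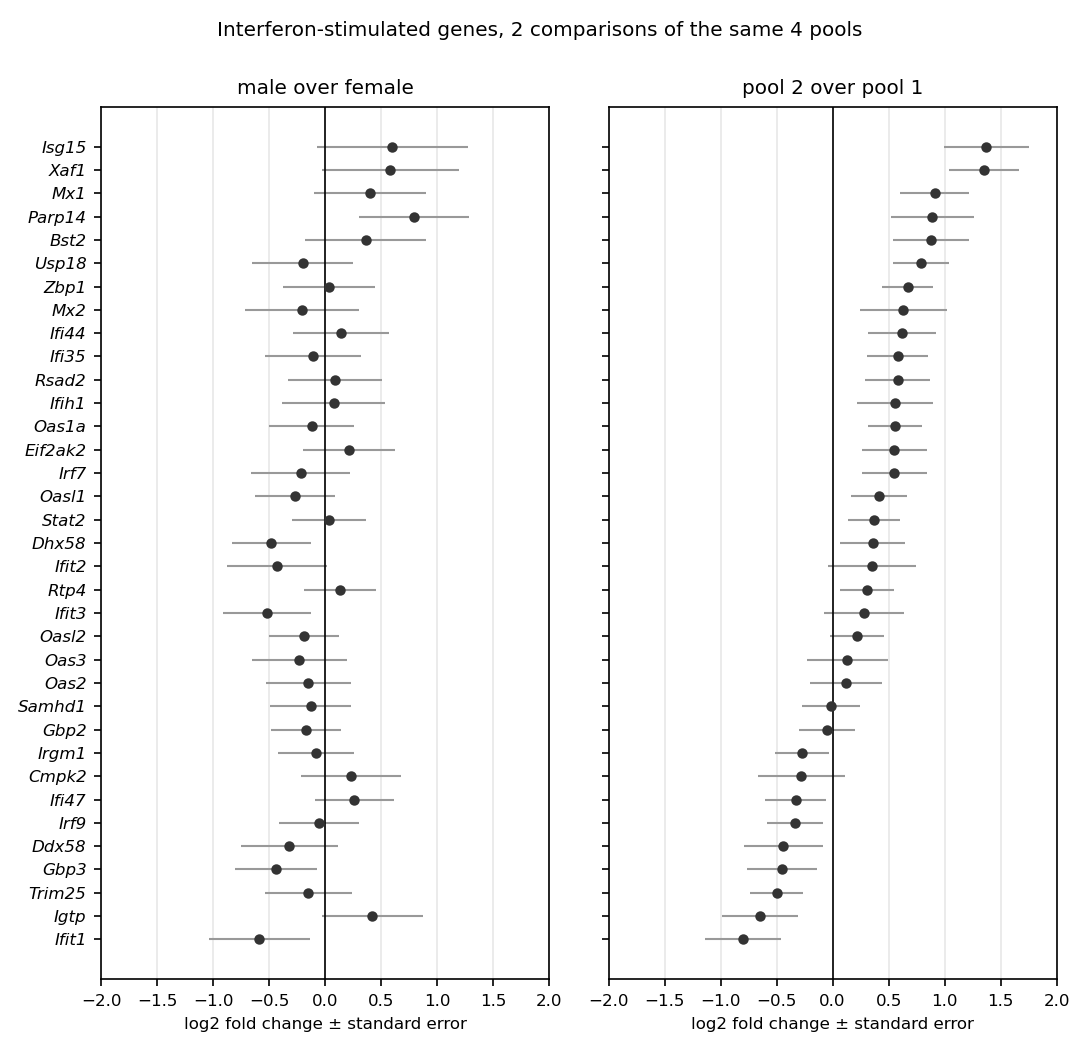
Log2 fold change (points) with standard error (lines) from edgeR for each of the 35 genes, male over female on the left and pool 2 over pool 1 on the right, ordered by the right panel. Both panels come from the same 4 pools; on the left values run from -0.59 to 0.79 with a median standard error of 0.42, and on the right from -0.80 to 1.37 with a median standard error of 0.29.

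The titles number the pools 1 and 2 in both sexes, and the spread that the sexes are measured against is that between these numbers. The sources used here do not say what a number stands for. Isg15 and Xaf1 had the largest differences, with levels in the pools numbered 2 above those in the pools numbered 1 in both sexes, and Ifit1 the largest in the other direction. After Benjamini-Hochberg adjustment no gene of the group passed edgeR's quasi-likelihood test (0 of 35, beside 2.03% of all genes, 1.86% as higher and 0.175% as lower), and the lowest adjusted p was 0.0579, for Xaf1. At an unadjusted p under 0.05, 8 genes were higher in the pools numbered 2, beside 14.4% of all genes, and 1 was lower, beside 9.22%. DESeq2, edgeR's exact test, the fit with no filter and the fit with sex as a second term each called 2 genes, Isg15 and Xaf1, among 651 to 1504 calls over all genes. Without female pool 2, 11 genes of the group passed edgeR's quasi-likelihood test (Isg15, Xaf1, Usp18, Bst2, Mx1, Zbp1, Rsad2, Ifi44, Ifi35 and Parp14 as higher in pool 2 and Ddx58 as lower) among 2663 of 11448 genes, and without male pool 2 Usp18 alone passed, among 273 of 11422 genes. The summed markers of macrophages and monocytes, given with those of other cells at the end, had the same order of the 4 pools as Isg15 and Bst2, and their part in these differences was not tested.

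Of the 35 genes, 24 had a log2 fold change of pool 2 over pool 1 above 0 and 11 below 0, with a median of 0.36 against -0.03 for all genes tested. Both pools numbered 2 lay above both pools numbered 1 for 18 genes (26.5% of all genes), and below them for 4, Irf9, Trim25, Ifit1 and Irgm1 (29% of all genes). Within females the higher level was in pool 2 for 25 of 35 genes, with a median log2 ratio of 0.22 and 49.8% of all genes higher. Within males it was in pool 2 for 25 of 35, with a median of 0.34 and 46.9% of all genes higher. The scaling of the libraries moves these values. With library size alone, without TMM factors, the median of the group was 0.051 and that of all genes -0.35, so the group lay 0.40 above all genes, against 0.39 with TMM. The counts without overlap were then 10 above (15.8% of all genes) and 7 below (42.2%).

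**Figure D3:**
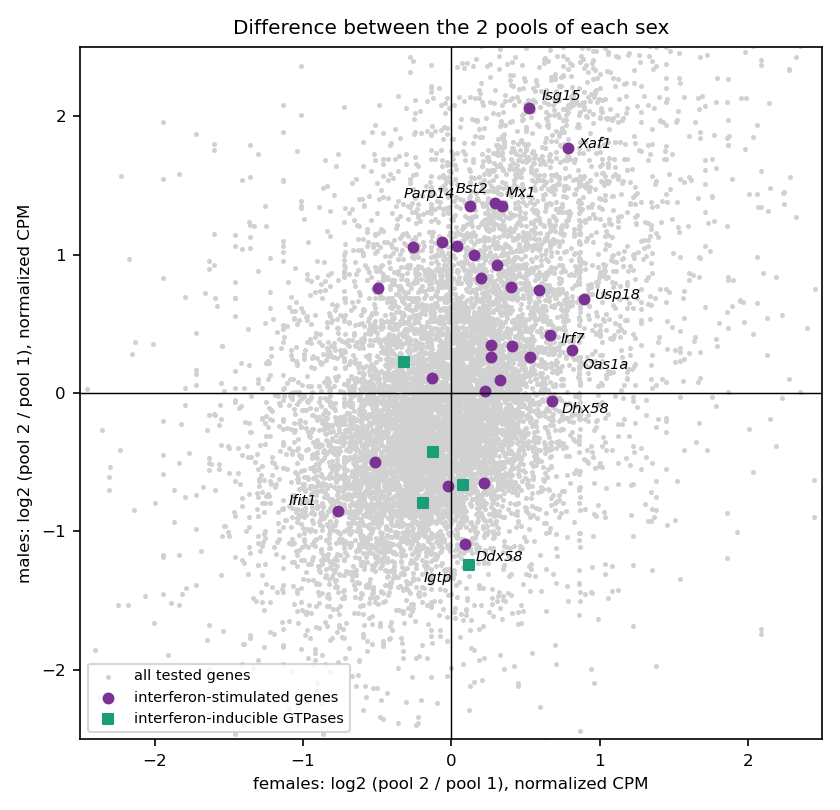
Log2 ratio of pool 2 over pool 1 in females (horizontal axis) and in males (vertical axis), from normalized CPM, for all tested genes with counts in every pool (grey; genes beyond the axes are not drawn), the interferon-stimulated genes (purple circles) and those that encode interferon-inducible GTPases (green squares). Isg15, at 2.06 in males, lies highest of the 35 genes and Igtp, at -1.25 in males, lowest.

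Of the transcription factors, Irf7 had 364 and 577 normalized CPM in female pools 1 and 2 and 345 and 462 in male pools 1 and 2. Both pools numbered 2 were the higher ones, and the sexes overlapped. The log2 fold change was -0.22 (SE 0.44) for male over female and 0.55 (SE 0.29) for pool 2 over pool 1. In the reference annotation Irf7 shares bases with Phrf1 on the opposite strand (NCBIM37, chromosome 7, 148448605 to 148452380, minus strand), and as no strand setting of the counting is given in the sources used here, reads of the pair cannot be told apart. Irf9, the DNA-binding subunit of ISGF3, had 81.7 and 80.3 in females and 95.4 and 59.8 in males. Its levels lay in the opposite order by pool number to those of Irf7 (log2 fold change -0.34, SE 0.25), and by sex the value was -0.057 (SE 0.36). Without male pool 2 these were -0.15 and 0.24. Irf9 shares annotated bases with Rnf31. Stat2, the subunit that carries the activation domain, had 28.1 and 37.4 in females and 29.7 and 37.5 in males. Its levels in pools of the same number were close to each other in the sexes, with log2 fold changes of 0.37 (SE 0.23) by pool and 0.037 (SE 0.33) by sex.

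The 6 genes of nucleic acid sensing, sensors and their regulators, had a median log2 fold change of 0.45 by pool number and -0.059 by sex. Zbp1, which binds Z-form nucleic acid and can start cell death, had 75.5 and 114 normalized CPM in females and 72.4 and 121 in males. The pools numbered 2 were higher in both sexes (log2 fold change 0.67, SE 0.23, unadjusted p = 0.0168, adjusted p = 0.129 by edgeR's quasi-likelihood test), and the sexes overlapped. Trim25, the ubiquitin ligase that activates RIG-I, ran the other way, with 191 and 134 in females and 172 and 122 in males. Its pools numbered 2 were lower in both sexes, at 0.703 times pool 1 in females and 0.710 times in males. Ddx58, which encodes RIG-I, a sensor of viral RNA ends, had 20.8 and 22.2 in females and 22.8 and 10.7 in males. Male pool 2 alone was low, and neither the sexes nor the pool numbers separated. Dhx58, which encodes LGP2, a regulator of RNA sensing, had 57.3 and 91.6 in females and 54.2 and 52.1 in males. Both male pools were below both female pools (log2 fold change -0.48, SE 0.35), and female pool 2 stood apart. Without female pool 2 the value by sex was -0.09. Ifih1 (MDA5, a sensor of long double-stranded RNA) and Eif2ak2 (PKR, a kinase that stops translation on double-stranded RNA) lay between 10.1 and 24.9 in all pools, with male pool 2 the highest for both.

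All 5 genes of the oligoadenylate synthetase family, enzymes and relatives that react to double-stranded RNA, had log2 fold changes below 0 for male over female (-0.12 to -0.27) and above 0 for pool 2 over pool 1 (0.12 to 0.56). Without female pool 2 or male pool 1, 2 of the 5 were above 0 by sex, and without female pool 1, 1 was. By pool number, 2 of the 5 were above 0 with library size alone, and 4 without male pool 1 or without male pool 2. Oas1a, which makes the activator of RNase L, had 48.2 and 84.7 normalized CPM in females and 54.6 and 67.8 in males. The pools numbered 2 were higher in both sexes, with a log2 fold change of 0.56 (SE 0.24, unadjusted p = 0.0419, adjusted p = 0.193 by edgeR's quasi-likelihood test). Oas1a has near-identical neighbours such as Oas1g, and reads with several alignments were not counted on genes, so its level is uncertain. Oas2 varied least in the family, with 10.5 and 12.3 in females and 10.2 and 10.3 in males. The males were below the females, at 0.969 times their level in the pools numbered 1 and 0.840 times in those numbered 2. Oasl1, which limits translation of Irf7, lay between 91.8 and 144, Oasl2 between 39.2 and 51.7 and Oas3 between 11.5 and 20.8, and the sexes overlapped for all 3 genes.

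Within the ISG15 system, Isg15 (NCBIM37, chromosome 4, 155573533 to 155574927, minus strand, 2 exon blocks) had 173 and 249 normalized CPM in females and 124 and 517 in males. Male pool 2 was the highest and male pool 1 the lowest, so the sexes overlapped while the pool numbers did not. The ratio of pool 2 to pool 1 was 1.44 in females and 4.18 in males. The log2 fold change was 1.37 by pool number (SE 0.38, adjusted p = 0.0816 by edgeR's quasi-likelihood test) and 0.60 by sex (SE 0.67), and the value by pool number was 0.75 without male pool 2. Usp18 had 122 and 227 in females and 117 and 187 in males. Its ratios of pool 2 to pool 1 were alike in the sexes, at 1.86 in females and 1.60 in males (log2 fold change 0.79, SE 0.25, adjusted p = 0.111 by edgeR's quasi-likelihood test).

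The IFIT proteins bind foreign RNA caps and ends, and unlike Isg15 none of the 3 genes in the group had its highest level in male pool 2. Ifit3b (I830012O16Rik), outside the group and too low to be tested, was highest there, at 3.45 normalized CPM on 9 reads. Ifit1 had 26.8 and 15.8 normalized CPM in females and 18 and 9.96 in males. Its pools numbered 2 were lower than its pools numbered 1, at 0.588 times in females and 0.555 times in males. The log2 fold change was -0.80 by pool number (SE 0.34, unadjusted p = 0.045, adjusted p = 0.201 by edgeR's quasi-likelihood test) and -0.59 by sex (SE 0.45), each the lowest of the 35 genes. The value by pool number was -0.48 without male pool 2, and that by sex was -0.15 without female pool 1. The counts behind the lowest values were small, 26 reads in male pool 2 and 32 in female pool 2. Ifit3 had 11.9 and 14.3 in females and 8.32 and 9.96 in males. The males were below the females in both numbers (0.699 and 0.698 times their level), and the difference of -0.52 was near its standard error of 0.39. Ifit3 has a near-identical copy next to it, and its level is uncertain for that reason. Ifit2 lay between 9.39 and 20.6, with male pool 1 the low pool.

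Among Mx1 and the other antiviral effectors, Mx1, a dynamin-like GTPase that acts on influenza and related viruses and is disrupted in C57BL/6 mice, had 18.1 and 22.2 normalized CPM in females and 15.1 and 39.1 in males. The pools numbered 2 were higher in both sexes (log2 fold change 0.91, SE 0.31, adjusted p = 0.132 by edgeR's quasi-likelihood test), and male pool 2 was far above the rest. Bst2 had 305 and 386 in females and 250 and 638 in males. It followed the same order of pools as Isg15 and Mx1, with a log2 fold change of 0.88 by pool number (SE 0.34, adjusted p = 0.158 by edgeR's quasi-likelihood test) and 0.36 by sex (SE 0.54). Without male pool 2, the values by pool number and by sex were 0.47 and -0.46 for Bst2 and 0.42 and -0.39 for Mx1. Cmpk2, a mitochondrial nucleotide kinase, had 6.76 and 7.88 in females and 10.2 and 6.51 in males. Here male pool 1 was the highest, on 16 to 86 reads a pool, and neither grouping separated the pools. Rsad2, which encodes viperin, an enzyme that makes a chain-terminating nucleotide, lay between 22 and 46 with male pool 2 highest, and Mx2, the paralogue of Mx1, between 4.64 and 8.81. Samhd1, which breaks down deoxynucleotides, varied least of all 35 genes, between 203 and 241.

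The 5 interferon-inducible GTPases, which act on the membranes around intracellular microbes, had no log2 fold change above 0 by pool number, from -0.65 to -0.054 with a median of -0.33. This held with all 3 other scalings of the libraries, while without female pool 1 or without female pool 2, 1 of the 5 was above 0. Igtp (Irgm3) had 37.6 and 40.9 normalized CPM in females and 72.8 and 30.7 in males. Male pool 1 was the high pool and male pool 2 the low pool, so the ratio of pool 2 to pool 1 was 0.421 in males and 1.09 in females. The log2 fold change was -0.65 by pool number (SE 0.34) and 0.42 by sex (SE 0.45). Without male pool 1 these were -0.09 and -0.36. Ifi47 had the same order of the male pools, 66.4 and 41.8, but 44.4 and 46.8 in females, the opposite order. Irgm1 lay between 84.7 and 114. Ifi47 shares annotated bases with Olfr56. Gbp2 had 55.2 and 44.3 in females and 41.1 and 47.9 in males, so its direction by pool number differed between the sexes. Gbp3 had 29.8 and 26.1 in females and 25.8 and 14.9 in males. Both male pools of Gbp3 were below both female pools, but 25.8 and 26.1 nearly met.

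The other 5 induced genes had log2 fold changes above 0 by pool number, from 0.31 to 1.35. With library size alone Rtp4, the lowest of them, was at -0.023. Xaf1, which counters the apoptosis inhibitor XIAP, had 53.3 and 92.1 normalized CPM in females and 49.2 and 168 in males. Both pools numbered 2 were above both pools numbered 1, by 1.73-fold in females and 3.42-fold in males. The log2 fold change was 1.35 by pool number (SE 0.31, adjusted p = 0.0579 by edgeR's quasi-likelihood test) and 0.58 by sex (SE 0.61), and the value by pool number was 0.84 without male pool 2. Parp14, a mono-ADP-ribosyltransferase, had 17.6 and 19.2 in females and 18.2 and 46.4 in males. It was high in male pool 2 alone, which gave it the highest log2 fold change by sex of the 35 genes, 0.79 (SE 0.49, unadjusted p = 0.152, adjusted p = 1 in edgeR's quasi-likelihood test). Its value by pool number was 0.89 (SE 0.37), and 0.093 without male pool 2. Ifi35, a partner of the protein NMI, had 200 and 264 in females and 159 and 270 in males. The pools numbered 2 were again the higher, at 0.58 on the log2 scale (SE 0.27), and lay close together. Ifi44 lay between 13.2 and 26.4 and Rtp4, a chaperone of cell-surface receptors, between 25.7 and 34.9, both with male pool 2 highest.

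Counted over all 35 genes, the highest level was in male pool 2 for 14, in female pool 2 for 8, in female pool 1 for 7 and in male pool 1 for 6. The lowest level was in male pool 1 for 21 genes, in male pool 2 for 10, in female pool 1 for 4 and in female pool 2 for 0. The summed level was 2623 and 3279 normalized CPM in females and 2391 and 3627 in males. These tallies and sums depend on the TMM factors. As a share of reads on genes, the sum was 0.276% and 0.337% in females and 0.283% in each male pool. The difference between the male pools in the sum thus came from the scaling.

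Interferon ligands were sparse except for Ifnb1, which encodes interferon beta. Ifnb1 had 77 and 14 reads in females and 78 and 39 in males, or 20.8, 6.89, 9.27 and 14.9 normalized CPM. The order of the pools differed between the sexes, with pool 2 at 0.331 times pool 1 in females and 1.61 times in males, and neither fold change passed a test (-0.38, SE 0.48, by pool number and -0.26, SE 0.57, by sex). Of the 16 type I ligands with a row, 8 had no read in any pool, namely Ifna7, Ifna9, Ifna11, Ifna12, Ifna13, Ifna14, Ifnab and Ifne. The Ifna genes resemble each other closely, so their counts carry the same limit on reads with several alignments. Where no read was counted, the depth allows a level of up to 3 counts, or 0.812 and 1.48 normalized CPM in females and 0.357 and 1.15 in males, a limit for counting error only. Ifna1 had 1 read in each female pool and 3 and 0 in the male pools, Ifna2 had 1 and 0 in the female and 0 and 2 in the male pools, and Ifna4 had 4 in female pool 1 alone. Ifna5 (3 reads) and Ifna6 (1 read) were seen in male pool 1 alone, and Ifnk and Ifnz had 1 read each, in female pool 1. Ifng, the type II interferon of T and natural killer cells, had 13 and 1 reads in females and 21 and 4 in males. Its log2 fold change was -1.41 by pool number (SE 0.68, unadjusted p = 0.0673 by edgeR's quasi-likelihood test). The type III ligands Ifnl2 and Ifnl3 had at most 3 reads in a pool.

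All 6 receptor chains were measured. Their log2 fold change of male over female was above 0 for 6 of 6 (median 0.21, from 0.088 to 0.40), beside 53.2% of all genes tested (median 0.027). Of the 6, 0 passed the test and 0 had an unadjusted p under 0.05. Within pool number, males were lower for Ifnlr1 in the pools numbered 1 (0.572 times). In those numbered 2 they were lower for Ifngr1 (0.971 times) and Il10rb (0.977 times). Ifnar1, Ifnar2 and Ifngr2 were higher in males in both numbers. Ifnar1 and Ifnar2 form the type I receptor. Ifnar1 had 67.9 and 56.1 normalized CPM in females and 74.6 and 89.7 in males, so the male pools were both above the female pools, at 0.40 on the log2 scale (SE 0.32). Ifnar2 had 76.6 and 93.6 in females and 80.4 and 103 in males, with the sexes overlapping. For interferon gamma, Ifngr1 had 108 and 99.5 in females and 174 and 96.6 in males, and Ifngr2 had 141 and 142 in females and 172 and 143 in males. Male pool 1 was the high pool for both chains. For Ifngr2, as for Ifnar1, both male pools lay above both female pools, as they did for 9.47% of all genes. For type III interferons, Ifnlr1 had 11.6 and 8.37 in females and 6.66 and 18.4 in males. Its partner Il10rb had 54.9 and 67.5 in females and 64 and 65.9 in males, and the sexes overlapped for both. Ifnar2 and Il10rb share annotated bases on the same strand.

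Irf1, which drives many responses to interferon gamma, had 244 and 269 normalized CPM in females and 254 and 190 in males, with male pool 2 the low pool. Over 110 further genes of the pathway with a row, 90 were tested and 0 passed for sex, with a median log2 fold change of 0.065. By pool number 1 of 90 passed as higher and 0 as lower, beside 1.86% and 0.175% of all genes, with a median of 0.086. The 1 gene is no more than that share, and was Cxcl9, a chemokine induced by interferon gamma, which had 47.6 and 91.6 in females and 41.9 and 187 in males. Its pools numbered 2 were above its pools numbered 1 by 1.92-fold in females and 4.46-fold in males, and the log2 fold change was 1.64 (SE 0.34, adjusted p = 0.0486 by edgeR's quasi-likelihood test). Among 53 tested of 56 further interferon-stimulated genes, 33 were above 0 and 20 below 0 by pool number (median 0.24), and 17 higher and 2 lower ones had an unadjusted p under 0.05, beside 14.4% and 9.22% of all genes.

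Marker genes of other cell types were also set side by side by pool number, where C1qa, C1qb, C1qc and Batf3 passed the test. The gene named as leading a list has the highest mean normalized CPM over the 4 pools, with no correction for length. The 10 macrophage and monocyte markers were all above 0 for pool 2 over pool 1, with C1qa, C1qb and C1qc past the test as higher, and their summed level was 2117 and 4652 normalized CPM in females and 1507 and 6375 in males, led by Lyz2. The 11 tested markers of thymic epithelium were also all above 0, with 0 past the test, and summed to 409 and 711 in females and 450 and 689 in males, led by Spint2. The 7 tested B cell markers were all below 0 with 0 past the test, and summed to 4597 and 3014 in females and 3794 and 2527 in males, led by Cd79a. The 10 markers of plasmacytoid dendritic cells, cells known for making type I interferon, split into 3 above and 7 below 0, and summed to 2710 and 2159 in females and 2187 and 2828 in males, mostly through Ly6d, which other cells also express. The 9 conventional dendritic cell markers, led by Ccr7, split into 5 above and 4 below 0 with Batf3 past the test as higher, and summed to 3078 and 2530 in females and 2520 and 2092 in males.

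The summed markers of T cells and of NK cells were highest in male pool 1. Thymocyte and T cell markers summed to 424 and 338 normalized CPM in females and 1176 and 440 in males, led by Lck (277 in male pool 1, but below Cd8a in both pools numbered 2), and all 9 tested were above 0 for males with 0 past the test. The 5 NK cell markers summed to 13.3 and 3.45 in females and 68 and 13.4 in males, led by Nkg7, and both tested markers were above 0 for males. Neutrophil markers, led by Cxcr2 through male pool 2 (177), summed to 107 and 118 in females and 230 and 419 in males, and 6 of 7 tested were above 0 for males. Fibroblast markers, led by Dcn, summed to 12.2 and 45.8 in females and 69.1 and 78.2 in males. Endothelial markers stayed between 18 and 29.4 in sum, led by Pecam1 with Emcn at 0 in all pools. Erythroid markers stayed between 1.62 and 2.97, led by Alas2, with Hba-a1, which has a near-identical copy, at 0 in all pools. The part of any of these cells in the levels of the interferon-stimulated genes was not tested.

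**Figure D4:**
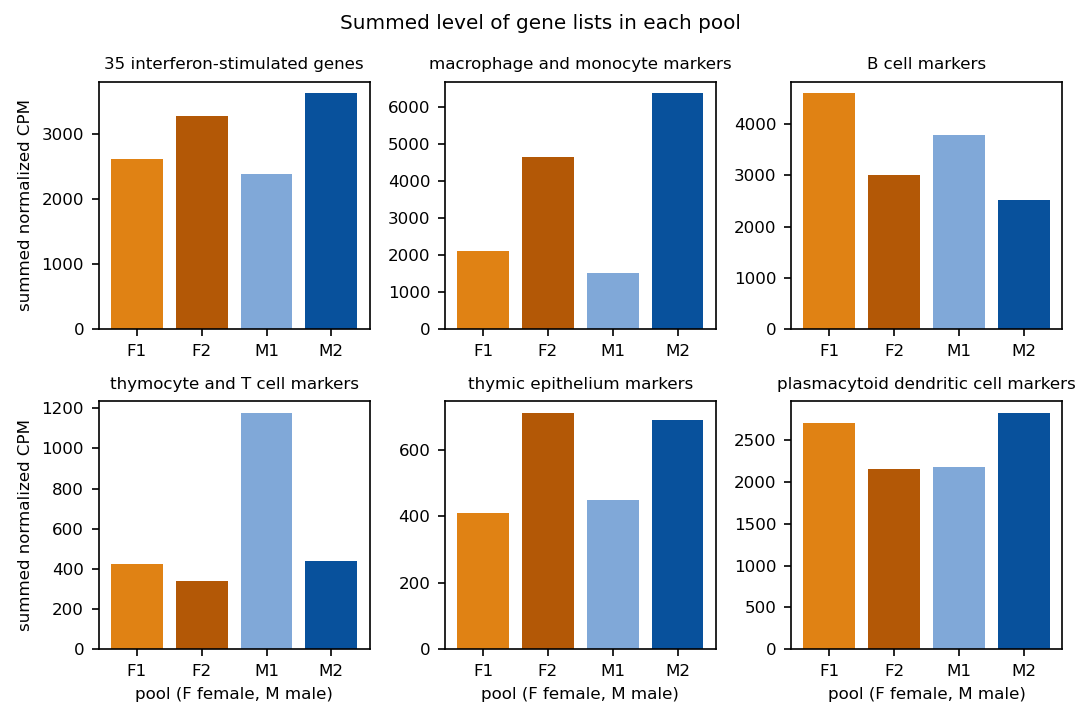
Summed normalized CPM of the 35 interferon-stimulated genes and of 5 marker lists in each pool (bars from 0; F1 and F2 are female pools 1 and 2, M1 and M2 male pools 1 and 2). The interferon-stimulated genes sum to 2623, 3279, 2391 and 3627 in this order, the macrophage and monocyte markers to 2117, 4652, 1507 and 6375, and the B cell markers to 4597, 3014, 3794 and 2527. The sums include the TMM factors, without which the interferon-stimulated genes took 0.283% of reads on genes in each male pool.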

How the data were processed

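RNA of 4 mTEC pools was measured, 2 female and 2 male. The deposited values are raw counts per gene, which the authors made with HTSeq from TopHat2 alignments to mm9, after a quality filter by Trimmomatic. The versions, gene annotation and strand setting are not given in the sources used here. A further 5 entries that name no gene held 66.9% to 70.2% of the reads of a pool and were left out. No pools differed by less than sampling noise (lowest chi-square per degree of freedom 10.1).

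Counts were tested with edgeR 4.0.16 in R 4.3.3 (quasi-likelihood test, TMM, filterByExpr with a minimum count of 10, prior count 0.125, two-sided, Benjamini-Hochberg adjustment at 0.05), with sex or pool number as the only term. The common biological coefficient of variation for sex was 0.349. Standard errors are the log2 fold change over the square root of F. DESeq2 1.42.0 was an alternative, beside other scalings, filters, an exact test, a replicate block and each pool left out. Python 3.11.15, pandas 2.3.3 and matplotlib 3.10.9 made tables and figures. The fits were tested on simulated data. Exon lengths came from the NCBIM37 annotation (21093 symbols, 90.3%).

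The members are a list of names with no threshold on a value, but they and the other lists were chosen with earlier results of these data known. Values in each pool are given for the 5 highest and 3 lowest members per kilobase, the 3 largest and smallest fold changes of each comparison, members under an unadjusted p of 0.05, Irf7, Irf9, Stat2, ligands with a count, receptors, Irf1 and any pathway gene past the test. Other genes were named after their values were seen. Some genes that this rule or the marker lists cover are not reported here.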

Additional observations from a re-analysis of the deposited data

Results flagged for a closer look

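For 10 genes the 2 pools of one sex differed in the opposite direction to the 2 pools of the other sex. With 1 pool per sex and number, the difference between the sexes was not tested for any of them. Values are log2 ratios of pool 2 over pool 1 from normalized CPM, and the difference is that of males minus that of females. Higher in pool 2 of males and lower in pool 2 of females were Ifih1 (1.09 and -0.059, difference 1.15), Oas3 (0.76 and -0.50, difference 1.26), Ifit2 (1.06 and -0.25, difference 1.31), Samhd1 (0.11 and -0.14, difference 0.25) and Gbp2 (0.22 and -0.32, difference 0.54). Lower in pool 2 of males and higher in pool 2 of females were Ddx58 (-1.09 and 0.089, difference -1.18), Dhx58 (-0.057 and 0.68, difference -0.73), Cmpk2 (-0.65 and 0.22, difference -0.87), Igtp (-1.25 and 0.12, difference -1.37) and Ifi47 (-0.67 and 0.077, difference -0.74).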

How the results depend on the processing

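No member passed for sex under any of 13 alternatives except without male pool 1 (range over single pools left out 0 to 3), and the sign of the log2 fold change was the same under every alternative for 7 members. The members' median for sex ran from -0.27 to 0.12 with single pools left out. By pool number 24 members kept their sign under every alternative, and 11 were called by at least 1. Isg15 and Xaf1 passed with no filter, DESeq2, the exact test and the replicate block (2 members each). With single pools left out the count ran from 0 to 11, the highest without female pool 2, and the median from 0.27 to 0.47. With library size only the median was 0.051.

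Calls over all genes, 0 for sex, were 5 with library size only (3 higher, 2 lower), 26 with no filter (24 and 2), 3 with DESeq2 (2 and 1), 8 with the exact test (6 and 2), 17 with the replicate block (15 and 2) and 0 to 646 with single pools left out. By pool number the 221 calls became 757 with library size only (372 and 385), 121 with size factors of DESeq2 (116 and 5), 1504 with no filter (1035 and 469), 651 with DESeq2 (586 and 65), 1138 with the exact test (868 and 270), 805 with the replicate block (646 and 159) and 174 to 2663 with single pools left out. The cause was not tested. Same-numbered pools deviated together (correlation 0.52 over genes). With 2 pairs, and no shared mice or day stated, what they share besides a number is not known.

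Chosen after seeing the data, library size only gave 10 members higher and 7 lower in both pools numbered 2, and 1 higher (6.11% of all genes) and 3 lower (8.99%) in both male pools, against 18, 4, 0 and 5. A fit without 1 pool takes the lone pool to vary like the others. The median standard error of 0.42 by sex limits the differences that could be detected.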

Other observations

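Several genes of the pathway outside the 35 had large differences by pool number, and those named here were chosen after their values were seen. Ifitm3, a membrane protein that blocks viral entry, had 242 and 394 normalized CPM in females and 202 and 1162 in males (log2 fold change 1.81, adjusted p = 0.0715 by edgeR's quasi-likelihood test). Tnfsf10, the death ligand TRAIL, had 11.6 and 21.7 in females and 12.7 and 89.3 in males (2.20, adjusted p = 0.0628). For both, male pool 2 was far above the other pools, as for Isg15 and Xaf1, and neither passed the test. Tlr3, a sensor of double-stranded RNA in endosomes, had 2.43 and 7.39 in females and 3.81 and 13.8 in males (1.71, adjusted p = 0.0706). Irf8, a factor of dendritic cells, macrophages and B cells, had 403 and 820 in females and 348 and 566 in males (0.88, adjusted p = 0.148).

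In the other direction, Gbp7, a GTPase of the same family as Gbp2 and Gbp3, had 28.4 and 15.3 in females and 22.4 and 15.3 in males (log2 fold change -0.72, adjusted p = 0.158 by edgeR's quasi-likelihood test). Stat3, which serves interleukin 6 and related receptors as well, had 463 and 258 in females and 372 and 154 in males (-1.02, adjusted p = 0.117).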
